A study of Mus musculus with 2 samples.

Results

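Replication-dependent histone genes encode the linker histone H1 and the core histones H2A, H2B, H3 and H4 that package newly made DNA during S phase. They were taken as the genes whose symbol starts with Hist1h, Hist2h, Hist3h or Hist4h, and 67 of the 24117 gene symbols listed in the data were members. By histone type these were 6 h1, 19 h2a, 19 h2b, 11 h3 and 12 h4 genes. The data are 2 libraries from enChIP-RNA-Seq, in which RNA is sequenced after crosslinked chromatin has been pulled down with a tagged DNA-binding protein. Both libraries come from Ba/F3, a mouse hematopoietic cell line labelled as strain C3H, and in both the anti-FLAG M2 antibody was used for the immunoprecipitation. The cells of the first library stably expressed 3xFN-Tel-TAL, a FLAG-tagged TAL protein that recognizes telomeric repeats, and those of the second expressed 3xFNLDD, a FLAG-tagged LexA protein that serves as the negative control. The comparison asks which RNAs were more abundant in the telomere isolate than in the control isolate. There is 1 library per condition, so no difference has a replicate check and no test was made.

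Replication-dependent histone mRNAs differ from nearly all other mRNAs at their 3′ end. They usually lack introns and a poly(A) tail, and end just after a conserved stem-loop that is bound by the stem-loop binding protein SLBP and is cut with the help of the U7 snRNP. Their genes lie in clusters that associate with a nuclear structure called the histone locus body, and they are transcribed mainly in S phase. The library kit named in the labels, TruSeq RNA v2, ordinarily selects polyadenylated RNA. Whether that step was applied here is not given in the sources used here.

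Transcript sequences of GENCODE M1 were searched on the sense strand for this element, as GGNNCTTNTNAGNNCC with 6 stem bases followed by 4 loop bases and the exact reverse complement of the stem. Of the 63 histone genes with a sequence, 43 held it (68.3%), compared with 0.0379% of the 55378 other protein-coding transcripts and 0.0251% of the 15925 others of at most 1000 nt. For the other 20, such as Hist1h1b, these letters are not in the annotated transcript. The 8 distinct stem-loops are shown because they are the feature that sets these mRNAs apart, each with the gene of most reads that carries it. They are written 5′ to 3′ as DNA letters, with the 16 bases of the stem-loop in capitals and 5 bases on either side.
Hist1h2ai: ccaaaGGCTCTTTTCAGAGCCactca
Hist1h3e: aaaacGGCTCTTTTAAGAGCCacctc
Hist1h3g: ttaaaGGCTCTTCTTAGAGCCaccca
Hist2h2ac: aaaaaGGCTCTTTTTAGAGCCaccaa
Hist1h4n: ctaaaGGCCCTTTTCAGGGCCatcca
Hist1h4i: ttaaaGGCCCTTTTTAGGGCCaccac
Hist1h4a: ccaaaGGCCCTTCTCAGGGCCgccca
Hist1h4j: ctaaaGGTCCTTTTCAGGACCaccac

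The stem followed the histone type. All 33 genes with the stem GGCTCT were h1, h2a, h2b or h3 genes, and all 10 h4 genes with a stem-loop had GGCCCT (8 genes) or GGTCCT (2 genes). The form shown for Hist1h2ai was the most frequent one, with 27 genes, of which 4 were h1, 10 h2a, 8 h2b and 5 h3. The 5 h4 genes with the form shown for Hist1h4n were Hist1h4c, Hist1h4d, Hist1h4f, Hist1h4h and Hist1h4n.

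The control library (3xFNLDD) has 7206183 reads and the telomere library (3xFN-Tel-TAL) 9774844 reads, of which 84.8% and 81.1% fell on 10 symbols. Values are given as read counts, always with the control first, and as RPM, which scales a library to a total of 1000000. The difference between the libraries is the log2 ratio of RPM, telomere over control. Each ratio carries an exact 95% Clopper-Pearson interval for counting error only, since PCR copies cannot be told from separate molecules here. A count of 3 is worth 0.416 RPM in the control library and 0.307 RPM in the telomere library. Ratios are given from 20 reads in both libraries together, and are counted past 1.4-fold in either direction. The study used this threshold for enriched non-coding RNAs, and here it is applied to the ratio of RPM of all symbols. Among the 12517 symbols with 20 reads the median log2 ratio was 0.37, so a gene at 0 lies below the typical RNA. Scaling with TMM, the trimmed mean of M values from edgeR, lowers all log2 ratios by 0.33 and puts that median at 0.041, and it leaves distances between genes as they are. Of 10 markers of the hematopoietic cell line, 8 had 20 reads, led by the cytokine receptor genes Csf2rb2 (751 and 849 reads) and Csf2rb (583 and 1052). Kit had 2 reads in each library, and Spi1 was not found in the data. No marker of fibroblasts, hepatocytes or epithelium reached 20 reads. The nearest were the fibroblast markers Col1a1 (14 and 5 reads) and Col1a2 (11 and 4).

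The replication-dependent histone genes as a group held nearly the same share of both libraries, and their median log2 ratio lay below that of all symbols. All 67 genes together had 3004 control reads (416.9 RPM) and 4008 telomere reads (410.0 RPM). Their pooled log2 ratio was -0.024 (95% interval -0.092 to 0.045), and it was -0.35 with TMM scaling. Other protein-coding genes of 1 exon pooled to 0.052, and those with a longest transcript of up to 1000 nt pooled to -0.22. The medians of these sets over genes with 20 reads were 0.29 and 0.22. Histone reads made up 0.0417% of the control library and 0.0410% of the telomere library. In isolates of this kind, more RNA per cell, a larger share of cells with the RNA and better capture with the chromatin cannot be told apart.

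Of the 67 genes, 55 had 20 reads. Their median log2 ratio was -0.0017, which is 0.37 below the median of all symbols with 20 reads, and 11 of the 55 lay above that median. Above 1.4-fold were 9 of the 55 genes (16.4%), whereas 41.1% of all symbols were. Below 1/1.4-fold were also 9 genes, beside 11.5% of all symbols. With TMM scaling 3 genes were above, beside 22.1% of all symbols, and 19 were below, beside 20.8%. DESeq2 size factors gave 4 above (25.6% of all symbols) and 15 below (18.2%), and totals without the symbols over 1% of a library gave 3 above (22.6%) and 17 below (20.4%). Under all 4 scalings the share of histone genes was smaller than the background above the threshold and larger below it.

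With a minimum of 10 reads, 10 of 58 histone genes were above 1.4-fold (39.4% of all symbols) and 9 below (16.8%). With 50 reads the counts were 5 of 40 above (42.2%) and 8 below (7.61%). Past 2-fold were Hist3h2a, Hist1h4k and Hist1h4f above (15% of all symbols) and Hist1h4c below (4.56%). The whole interval lay above 1.4-fold for Hist3h2a alone (10.1% of all symbols) and below 1/1.4-fold for 0 genes (2.8%). It lay above a ratio of 1 for 5 genes (34.3%), namely Hist1h2ai, Hist3h2a, Hist1h2bl, Hist1h4f and Hist1h4k. It lay below 1 for 5 others (7.29%), namely Hist1h1a, Hist1h1e, Hist1h4c, Hist1h4d and Hist1h4j. For the other 45 genes it held a ratio of 1, as it did for 58.4% of all symbols. For 15 genes the whole interval was below the median of all symbols (16.4% of all symbols), and for Hist3h2a and Hist1h4k it was above (14.0%).

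**Figure D1:**
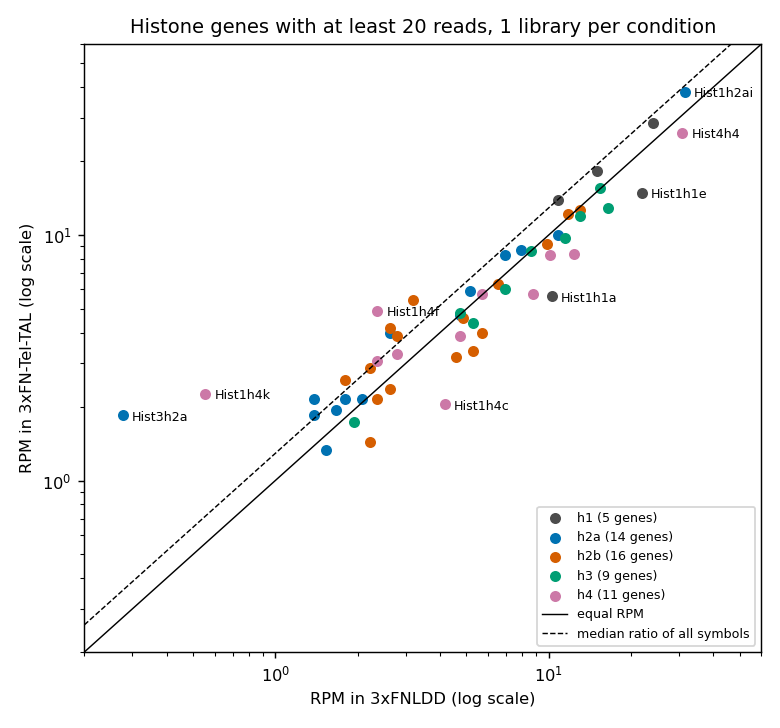
RPM in the 3xFNLDD library (x axis, log scale) and in the 3xFN-Tel-TAL library (y axis, log scale) for the 55 replication-dependent histone genes with at least 20 reads, 1 point per gene, coloured by histone type. The solid line marks equal RPM and the dashed line the median ratio of all symbols, and most points lie near the solid line, with Hist3h2a and Hist1h4k farthest above it and Hist1h4c, Hist1h1a and Hist1h1e among those below.

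The 12 genes under 20 reads had between 1 and 18 reads each, and in total 36 in the control library and 55 in the telomere library. The minimum fell between Hist1h4b, with 7 and 11 reads, and Hist3h2a, with 2 and 18 reads. Among these 12 was Hist1h1t, the testis-specific linker histone, with 2 control reads and 0 telomere reads, where a count of 0 allows up to 0.307 RPM. Also among them were the annotated pseudogenes Hist1h2aj, Hist2h3c2 and Hist3h2bb-ps.

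By histone type, h2a had the highest pooled log2 ratio and h4 the lowest. By medians over genes with 20 reads, h1 was the highest at 0.25, h2a stood at 0.24 and h4 was the lowest at -0.24. Each type had a similar number of reads, from 591 to 617 in the control library and from 731 to 933 in the telomere library. The 19 h2a genes had 591 and 933 reads, which gives a pooled value of 0.22 (95% interval 0.069 to 0.37) by library totals and -0.11 with TMM scaling. The 12 h4 genes had 617 and 731 reads and a pooled value of -0.20 (95% interval -0.35 to -0.038). Those intervals do not overlap each other. For the 11 h3 genes, with 610 and 754 reads, the value was -0.13 (95% interval -0.29 to 0.022), also without overlap with h2a. The 6 h1 genes and the 19 h2b genes happened to have the same sums, 593 and 795 reads, at -0.017 (95% interval -0.17 to 0.14). All 5 pooled values were below the median of all symbols, h2a by 0.15 and h4 by 0.56 on the log2 scale. A pooled value and a median over genes are unlike measures, and all symbols pool to 0 by definition. By type medians, h1 was 0.11, h2a 0.13 and h4 0.61 below the median of all symbols.

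**Figure D2:**
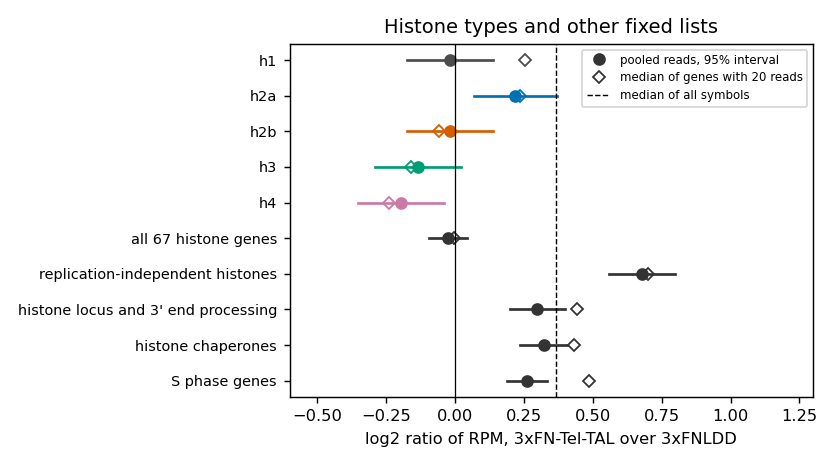
Log2 ratio of RPM, telomere (3xFN-Tel-TAL) over control (3xFNLDD) (x axis) for the 5 histone types, all 67 histone genes and 4 other gene lists. Filled circles are pooled reads with the exact 95% counting interval, open diamonds are medians over genes with at least 20 reads, and the dashed line is the median of all symbols, 0.37; replication-independent histones lie to its right and every histone type pools to its left.

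H1 is the linker histone, which binds the DNA between nucleosomes, and its genes split into 2 sets. Hist1h1d, the h1 gene with the most reads, had 173 control reads (24.0 RPM) and 280 telomere reads (28.6 RPM), for a log2 ratio of 0.25 (95% interval -0.024 to 0.54). Hist1h1c had 108 and 179 reads (0.29, 95% interval -0.063 to 0.65), and Hist1h1b had 78 and 136 reads (0.36, 95% interval -0.050 to 0.78). These 3 genes were between 0 and the median of all symbols, and with TMM scaling they were at -0.072, -0.038 and 0.035. Hist1h1e went the other way, with 158 control reads (21.9 RPM) and 145 telomere reads (14.8 RPM), for a log2 ratio of -0.56 (95% interval -0.90 to -0.23). Hist1h1a had 74 and 55 reads (log2 ratio -0.87, 95% interval -1.40 to -0.34). The intervals of Hist1h1e and Hist1h1a do not overlap those of the other 3 genes, but the sets were formed from these same ratios. By the median over genes, h1 is the histone type most distinct in sequence. Between 77.8% and 100% of the 50-base words of each h1 transcript occur in no other protein-coding transcript of the annotation. Some genes of other types lie in that range too, such as Hist2h2be at 100%.

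H2A and H2B form the dimers on the outer part of the nucleosome, and their genes often lie next to each other in divergent pairs. Hist1h2ai had the most reads of the 67 replication-dependent genes. It had 227 control reads (31.5 RPM) and 374 telomere reads (38.3 RPM), for a log2 ratio of 0.28 (95% interval 0.039 to 0.52) by library totals and -0.046 with TMM scaling. It held 39.4% of all h2a reads, and without it the pooled log2 ratio of h2a was 0.18. Hist1h2ap had 78 and 98 reads (-0.11, 95% interval -0.55 to 0.34) and Hist1h2af 57 and 85 reads (0.14, 95% interval -0.36 to 0.65). Hist1h2ae, with 19 and 39 reads, was among the 5 highest genes with at least 50 reads at a log2 ratio of 0.60 (95% interval -0.23 to 1.47). No h2a gene was below 1/1.4-fold, beside 11.5% of all symbols. Of the 14 with 20 reads 3 were above 1.4-fold (21.4%, beside 41.1%), namely Hist1h2ae, Hist1h2an (10 and 21 reads, 0.63) and Hist3h2a.

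The highest log2 ratio of the replication-dependent genes was that of Hist3h2a, 2.73 (95% interval 0.67 to 5.88), which rests on 2 control and 18 telomere reads. It stands at the minimum of 20 reads, and its annotated transcript lies on the same strand within that of Trim17, whose transcript had 52 and 102 reads at a log2 ratio of 0.53. This overlap is one of spans, introns included, and 66.0% of the 50-base words of Hist3h2a occur in no other protein-coding transcript. Reads from the shared part cannot be told apart.

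The h2b genes spread to both sides, with 4 of 16 above 1.4-fold (25%, beside 41.1% of all symbols) and 4 below 1/1.4-fold (25%, beside 11.5%). The 3 with the most reads were close to equal in the libraries. Hist1h2bq had 94 control reads (13.0 RPM) and 124 telomere reads (12.7 RPM), Hist1h2bc 85 and 119 reads, and Hist1h2be 71 and 90 reads. Their log2 ratios were -0.040, 0.046 and -0.098. Hist1h2bl was the highest h2b gene, with 23 and 53 reads (log2 ratio 0.76, 95% interval 0.033 to 1.54). Hist1h2bb, with 19 and 41 reads, was at 0.67 (95% interval -0.15 to 1.54) and Hist1h2bg, with 20 and 38 reads, at 0.49 (95% interval -0.33 to 1.35), just past the threshold. The other h2b gene above it was Hist1h2bp, with 13 and 25 reads (0.50). The lowest h2b gene was Hist1h2ba, the gene of a testis-specific H2B, with 38 and 33 reads (log2 ratio -0.64, 95% interval -1.36 to 0.068). Also below 1/1.4-fold were Hist1h2bk (16 and 14 reads, -0.63), Hist1h2bm (33 and 31 reads, -0.53) and Hist1h2bf (41 and 39 reads, -0.51). Of the 16 intervals, 15 held a ratio of 1, beside 58.4% of all symbols, and the exception was Hist1h2bl.

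H3 and H4 form the central tetramer of the nucleosome. The h3 genes were the most uniform type, with log2 ratios from -0.36 to 0.027 over 9 genes, none of them past 1.4-fold in either direction (41.1% of all symbols were above and 11.5% below). Hist1h3e had 111 control reads (15.4 RPM) and 152 telomere reads (15.6 RPM), for a log2 ratio of 0.014 (95% interval -0.35 to 0.38). Hist1h3b had 119 and 126 reads (-0.36, 95% interval -0.73 to 0.016), and Hist1h3f 94 and 117 reads (-0.12, 95% interval -0.53 to 0.28). All 9 intervals held a ratio of 1, beside 58.4% of all symbols. For 3 of them the upper bound was below the median of all symbols, beside 16.4% of all symbols.

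The h4 genes spread to both sides, and 5 of 11 intervals excluded a ratio of 1, which 41.6% of the intervals of all symbols did. Above 1.4-fold were 2 genes and below 1/1.4-fold 3, beside 41.1% and 11.5% of all symbols. Hist4h4 held 35.4% of the h4 reads, with 222 control reads (30.8 RPM) and 255 telomere reads (26.1 RPM), for a log2 ratio of -0.24 (95% interval -0.51 to 0.026). Hist1h4j had 89 and 82 reads (-0.56, 95% interval -1.01 to -0.11), Hist1h4d 63 and 56 reads (-0.61, 95% interval -1.16 to -0.067) and Hist1h4c 30 and 20 reads (-1.02, 95% interval -1.92 to -0.16). Hist1h4c was the lowest of all 55 genes. Hist1h4n was at -0.29 (95% interval -0.76 to 0.19) from 73 and 81 reads. In the other direction, Hist1h4f had 17 and 48 reads (log2 ratio 1.06, 95% interval 0.23 to 1.95), and Hist1h4k had 4 and 22 reads (log2 ratio 2.02, 95% interval 0.46 to 4.02). The interval of Hist1h4f does not overlap that of Hist1h4c, Hist1h4d or Hist1h4j, although Hist1h4f, Hist1h4c and Hist1h4d carry the same stem-loop.

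**Figure D3:**
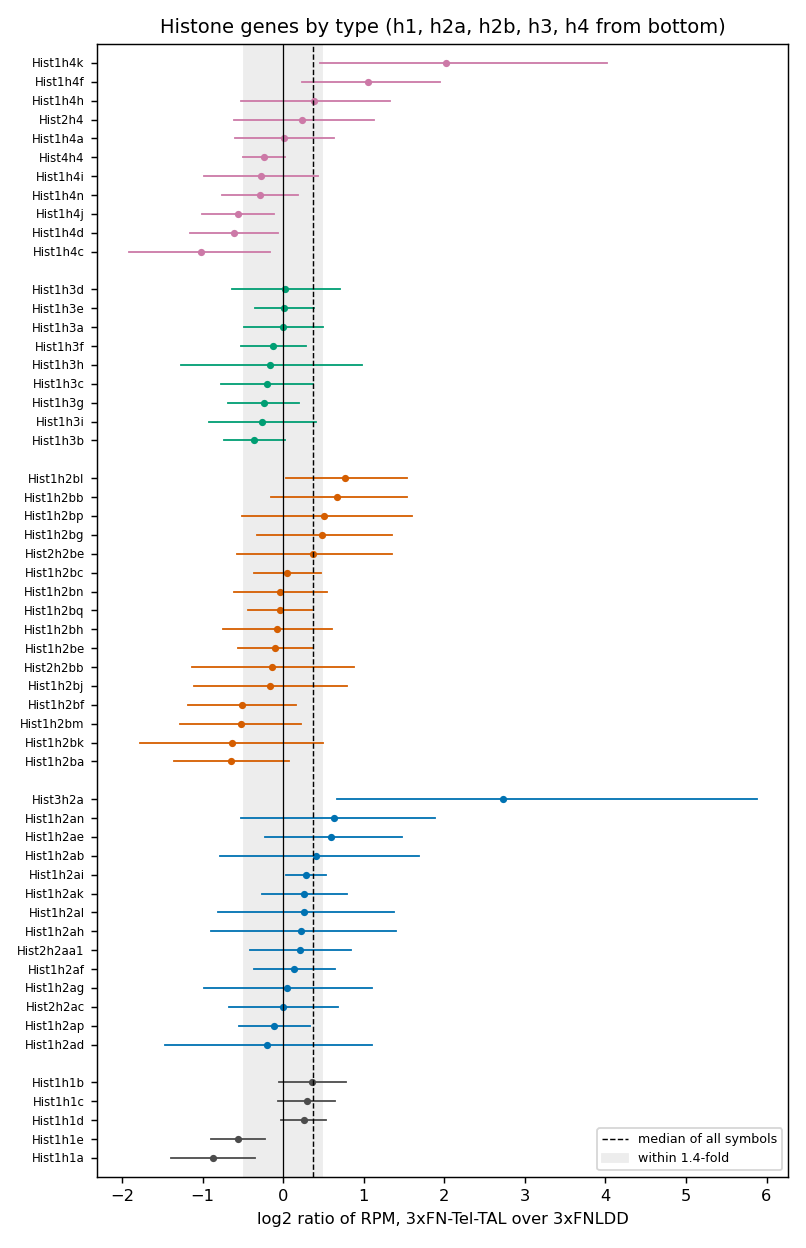
Log2 ratio of RPM, telomere (3xFN-Tel-TAL) over control (3xFNLDD) (x axis) with its exact 95% counting interval for each of the 55 histone genes with at least 20 reads, grouped by type. The grey band is within 1.4-fold and the dashed line is the median of all symbols; 45 of the 55 intervals cross 0 (58.4% of all symbols do), and the h3 genes stay closest together.

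Levels per kilobase of annotated transcript could not be given for Hist4h4, the h4 gene with the most reads, since no length was matched to it. Among the genes with a length, the highest levels in the control library were those of 4 genes of different types. Hist1h2ai stood at 30.3 RPM per kb, Hist1h1e at 29.3, Hist1h4j at 28.9 and Hist1h3b at 26.6. In the telomere library the same genes stood at 36.8, 19.8, 19.6 and 20.8 RPM per kb. Among h2b genes the level was highest for Hist1h2bn, at 17.1 RPM per kb in the control library and 16.6 in the telomere library. These levels depend on where the annotation ends a transcript, since the model of Hist1h1d has 3821 nt, of which 3050 nt lie beyond the stem-loop, whereas that of Hist1h1e ends 27 nt after it.

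The histone genes of most types are near-copies of one another, which limits single-gene values. The median share of a gene's 50-base words that occur in no other protein-coding transcript of the annotation was 32.9% for h2a, 40.1% for h2b, 48.2% for h3, 57.0% for h4 and 97.8% for h1. Of the 35791 distinct words in all histone genes, 4.42% were shared between genes of 1 type only and 0 were shared between histone types. Another 17.3% also occurred in annotated transcripts other than those of the listed histone genes. Most such words were in transcripts absent from the data, led by 1 with 2308 words, and whether these belong to histone genes was not checked. Of the listed genes, Gm20634 held 863 of the words, Trim17 660, H2afx 82 and H2afj 5. Reads were not split evenly between identical copies. Hist1h2ap and Hist1h2ao have the same 519-nt sequence, but Hist1h2ap was given 78 and 98 reads and Hist1h2ao 3 and 4. Hist2h2aa1 and Hist2h2aa2 share a 578-nt sequence, with 37 and 58 reads for the first and 0 and 1 for the second. In addition, 97.0% of the 50-base words of Hist2h2aa1 occur in Gm20634, which overlaps it on the same strand and had 158 and 147 reads. The median log2 ratio was 0.027 for the 29 genes with at least 50% own words and -0.059 for the 24 genes below.

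The 66 genes with an annotated position lie on 3 chromosomes, mostly in clusters. On NCBIM37, 23 of the Hist1 genes are on chromosome 13 from 21807632 to 22135545 and 30 are on the same chromosome from 23622919 to 24026025, with Hist1h2al alone at 51298057 to 51298434. The 9 Hist2 genes are on chromosome 3 from 96023839 to 96082924, and the 3 Hist3 genes on chromosome 11 from 58762413 to 58770176. By cluster name, the 54 Hist1 genes had 2639 and 3529 reads, a pooled log2 ratio of -0.021 (95% interval -0.094 to 0.053). The 9 Hist2 genes had 135 and 202 reads, a pooled log2 ratio of 0.14 (95% interval -0.18 to 0.47), and the intervals of both clusters overlap. Of 65 transcripts of histone genes, 6 held the telomeric hexamer TTAGGG (9.23%) and 11 held its complement CCCTAA (16.9%), most of them over 1000 nt long. Of the 51 histone transcripts of at most 1000 nt, 1 held TTAGGG (1.96%) and 3 held CCCTAA (5.88%), compared with 4.46% and 8.17% of other protein-coding transcripts up to that length. None held 4 such repeats in a row.

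The ratio differed between classes of annotated transcript. These classes were chosen after the values were seen, so their differences are descriptive only. Histone genes whose annotated transcript ends within 100 bases of the stem-loop had 1154 control and 1291 telomere reads. Their pooled log2 ratio was -0.28 (95% interval -0.39 to -0.16), or -0.60 with TMM scaling. Histone genes whose transcript extends over 100 bases beyond the stem-loop had 969 and 1473 reads. Their pooled log2 ratio was 0.16 (95% interval 0.046 to 0.28), or -0.16 with TMM scaling. The 24 genes in which no stem-loop was found or no sequence was matched had 881 and 1244 reads, a pooled log2 ratio of 0.058 (95% interval -0.068 to 0.18), or -0.27 with TMM scaling. Of the first class, 7 of 25 genes with 20 reads were below 1/1.4-fold, including Hist1h1a, Hist1h1e, Hist1h4c, Hist1h4d and Hist1h4j, of the second 0 of 13 and of the third 2 of 17, beside 11.5% of all symbols. Among genes with 20 to 601 reads and a transcript of up to 500 nt, the median log2 ratio was -0.059 for 22 histone genes and -0.043 for 46 other protein-coding genes. Over 500 and up to 1000 nt it was -0.0017 for 21 histone genes and 0.27 for 322 others. Over 1000 and up to 2000 nt it was 0.26 for 6 histone genes and 0.39 for 1689 others, and above 2000 nt it was 0.11 for 4 histone genes and 0.38 for 8061 others. By pooled reads, the histone genes up to 500 nt were at -0.088 (95% interval -0.23 to 0.058) and the others at -0.30 (95% interval -0.38 to -0.22), so that the histone genes were higher there. Over 500 and up to 1000 nt the pooled values were -0.11 (95% interval -0.22 to -0.00030) for histone genes and 0.10 (95% interval 0.063 to 0.14) for others, so that the histone genes were lower. The 6 and 4 histone genes of the longer classes pooled to 0.22 and 0.12. The part that length plays in the group's ratio was not tested.

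**Figure D4:**
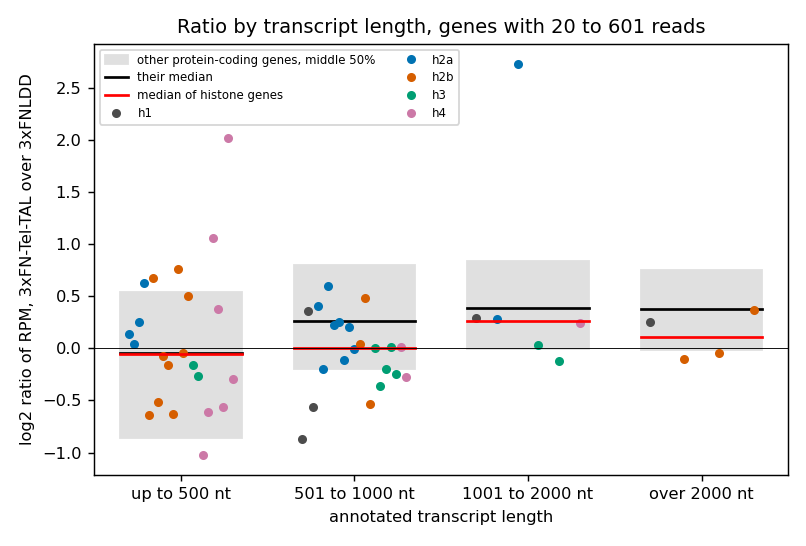
Log2 ratio of RPM, telomere (3xFN-Tel-TAL) over control (3xFNLDD) (y axis) for histone genes with at least 20 reads, by annotated transcript length (x axis), 1 point per gene coloured by type. Red lines are medians of the histone genes, grey boxes the middle 50% and black lines the medians of other protein-coding genes with 20 to 601 reads; the red and black lines lie closest in the class up to 500 nt.

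Replication-independent histone genes mostly make polyadenylated mRNAs, and most of those with 20 reads were above the median of all symbols. Of the 17 in the list, 15 were found in the data and 10 had 20 reads. Among these 8 were above 1.4-fold and none below 1/1.4-fold, beside 41.1% and 11.5% of all symbols. Their pooled reads were 844 and 1831, which gives a log2 ratio of 0.68 (95% interval 0.56 to 0.80), or 0.35 with TMM scaling. The interval does not overlap that of the replication-dependent genes. H2afy3 had the highest log2 ratio, 1.45 (95% interval 1.01 to 1.91), from 54 and 200 reads. Cenpa, the centromeric H3 variant, had 58 and 154 reads (0.97, 95% interval 0.52 to 1.43), and H1f0, the linker histone of resting and differentiating cells, had 83 and 211 reads (0.91, 95% interval 0.53 to 1.29).

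H2afx, whose product is phosphorylated at DNA breaks, had 159 and 353 reads (log2 ratio 0.71, 95% interval 0.44 to 0.99). It makes both a stem-loop and a polyadenylated mRNA, and the stem-loop was found in its annotated transcript. H2afy, the gene of macroH2A1, had 226 and 467 reads (0.61, 95% interval 0.38 to 0.84). The genes of H3.3 were at 0.69 for H3f3b (73 and 160 reads) and 0.49 for H3f3a (41 and 78 reads). H2afz was at 0.15 from 59 and 89 reads. H2afj was the lowest, at -0.14 from 52 and 64 reads.

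The genes that make and handle histone mRNA and histones were near the median of all symbols. For 19 genes of the histone locus body and of 3′ end processing with 20 reads, the median log2 ratio was 0.44, with 8 above 1.4-fold (42.1%, beside 41.1% of all symbols). Below 1/1.4-fold was 1 gene, Snrpf of the Sm ring (13 and 7 reads, -1.33), beside 11.5% of all symbols. Npat, the cyclin E-Cdk2 substrate that activates histone transcription, had 34 and 93 reads (log2 ratio 1.01, 95% interval 0.43 to 1.62). Sympk, a scaffold of the cleavage complex, had 192 and 354 reads (0.44, 95% interval 0.19 to 0.70). Slbp itself had 198 and 240 reads (-0.16, 95% interval -0.44 to 0.12), and Snrpb, of the Sm ring, 61 and 70 reads (-0.24, 95% interval -0.76 to 0.28). The upper bound of Slbp was thus below the median of its list.

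The 19 histone chaperone genes had a median log2 ratio of 0.43, with 9 above 1.4-fold (47.4%) and 1 below 1/1.4-fold (5.26%), beside 41.1% and 11.5% of all symbols. Nasp, which escorts H1, H3 and H4, had 212 and 384 reads (0.42, 95% interval 0.17 to 0.67). Ssrp1, a subunit of FACT, had 44 and 116 reads (0.96, 95% interval 0.45 to 1.49). Nap1l1 was at -0.19 from 237 and 281 reads. Daxx, a chaperone of H3.3, was the lowest at -0.68 (95% interval -1.46 to 0.094) from 33 and 28 reads. The 27 S phase genes had a median of 0.49, with 14 above 1.4-fold (51.9%) and none below 1/1.4-fold, beside the same 41.1% and 11.5%. Gins2, of the replicative helicase, was the highest of those with 50 reads at 1.35 (95% interval 1.02 to 1.70) from 92 and 319 reads, and Rpa2 the lowest at -0.18 from 25 and 30 reads. Tyms, thymidylate synthase, had the most reads, 1011 and 1271, a log2 ratio of -0.11 (95% interval -0.23 to 0.011), and the pooled reads of the list gave 0.26 by library totals and -0.065 with TMM scaling. The replication-dependent histone genes were thus below the S phase genes by their medians, -0.0017 and 0.49, a distance that another scaling of the libraries does not change.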

How the data were processed

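RNA purified after immunoprecipitation was sequenced as 1 library per condition, and the authors deposited a read count per Ensembl transcript. The authors also deposited RPM, which differed from counts over library totals by at most 4.75e-05. The submitters' processing notes name cutadapt and GRCm38 or mm10, whereas the aligner, the annotation release and the treatment of reads matching several transcripts are not given in the sources used here. Both files were joined on the Ensembl ID and counts were summed per gene symbol. Each library used 60 ng of RNA according to the labels.

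Ratios and intervals were computed in Python 3.11.15 with scipy 1.17.1 and pandas 2.3.3, and alternative scalings in edgeR 4.0.16 and DESeq2 1.42.0. The interval computation was tested on simulated data. Transcript positions, lengths and sequences came from GENCODE M1 (NCBIM37), matched by transcript ID, and no coordinate was moved between builds. It holds a position for 66 of the 67 histone genes. Genes were named as the 3 with the most reads per type, the 5 highest and 5 lowest log2 ratios among those with at least 50 reads and, for other lists, the 2 with the most reads, the highest and the lowest. Replication-independent histone genes with at least 100 reads were also named. Genes outside this rule were chosen after their values were seen, as were the length and stem-loop classes. The members and lists were chosen with earlier results of these data known.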

Additional observations from a re-analysis of the deposited data

How the results depend on the processing

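No paired analysis was possible because each condition has 1 library, which also leaves no replicate to drop. With TMM scaling, DESeq2 size factors and totals without the 10 symbols above 1% of a library, every log2 ratio fell by 0.33, 0.26 and 0.32. In that order, the pooled log2 ratio was -0.34, -0.28 and -0.33 for h1 and likewise for h2b, -0.11, -0.040 and -0.097 for h2a, -0.46, -0.39 and -0.45 for h3, and -0.52, -0.45 and -0.51 for h4. The median was -0.33, -0.26 and -0.32 for the replication-dependent histone genes, 0.37, 0.44 and 0.39 for the replication-independent ones, 0.12, 0.18 and 0.13 for histone locus and 3′ end processing, 0.11, 0.17 and 0.12 for chaperones, and 0.16, 0.23 and 0.17 for S phase genes. Histone genes above 1.4-fold numbered 3, 4 and 3 (9 by library totals), beside 22.1%, 25.6% and 22.6% of all symbols (41.1%). Those below 1/1.4-fold numbered 19, 15 and 17 (9), beside 20.8%, 18.2% and 20.4% (11.5%). At least 50 reads left 5 above, beside 42.2% of all symbols. A threshold of 2 gave 3 above (15% of all symbols) and 1 below (4.56%). The 95% bound past 1.4 gave 1 above (10.1%) and 0 below (2.8%). The median of the replication-dependent genes was -0.098 with at least 100 reads. The other 26 values kept within the counting interval or within 1.5 times the count. For a median, the interval used was that of the pooled reads moved to centre on the median. It does not measure the spread of a median over genes. These include leaving out the gene with the most reads of each type and, added after seeing the data, keeping genes with at least 50% own 50-base words. At this depth 45 of 55 intervals held a ratio of 1, beside 58.4% of all symbols.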

Other observations

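Few genes that are not histones lie between the histone genes of a cluster, and 4 of them had 20 reads. Hfe, the hemochromatosis gene, had 68 control and 125 telomere reads (log2 ratio 0.44, 95% interval 0.0011 to 0.89), and Trim17 had 57 and 108 (0.48, 95% interval 0.0062 to 0.97). Gm20634, whose transcript overlaps Hist2h2aa1 and holds a histone stem-loop, had 158 and 147 (-0.54, 95% interval -0.88 to -0.21). Pom121l2 had 59 control reads (8.19 RPM) and 0 telomere reads, which is at least 26.7-fold lower against a floor of 3 reads in that library. The upper 95% bound of its log2 ratio, which also counts the error of the control reads, was -4.39. These 4 genes were looked at after the values of the histone genes were known.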
